A study of Mus musculus with 9 samples.

Results

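Clec5a, Clec12a, Igsf6, Trem3, Fcgr3, Fcer1g and Tyrobp, 7 of the 14940 genes in the deposited table, encode membrane receptors of myeloid cells and the adaptor chains through which several of them signal. The genes were chosen by symbol, with earlier results of these data in view: Clec5a, Igsf6 and Trem3 had been among the largest differences between EAE and naive mice. RNA came from bone marrow LSK cells, sorted as negative for lineage markers and positive for Sca1 and cKit, a gate that contains blood stem cells and early progenitors. All 9 mice were C57BL/6, with 3 in each of 3 groups: naive mice (day 0), mice with experimental autoimmune encephalomyelitis (EAE) sampled on day 3 after they had received MOG35-55, a myelin peptide, in complete Freund's adjuvant, and mice immunized in the same way and given SR59230A, which blocks the beta 3 adrenergic receptor, for those 3 days. The labels describe the replicates as separate mice and give no age or sex. No group had adjuvant alone and no vehicle is named, so adjuvant and peptide, and the antagonist and its administration, cannot be told apart.

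Tyrobp, also called DAP12, and Fcer1g, the Fc receptor gamma chain, are short membrane proteins with almost no extracellular part and a cytoplasmic tyrosine motif, the ITAM. A receptor that binds its ligand brings the chain to kinases of the Src family, the phosphorylated motif recruits the kinase Syk, and the signal runs on through phospholipase C-gamma and, in myeloid cells, the scaffold Card9. Clec5a, a C-type lectin, and Trem3 pair with Tyrobp. Fcgr3, a low-affinity receptor for IgG, needs Fcer1g to reach the cell surface. Clec12a is also a myeloid lectin, but its own tail carries an inhibitory motif (ITIM), so the name activating receptor does not describe it. Igsf6 is an immunoglobulin-superfamily membrane protein of myeloid cells.

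The stretches upstream of the genes are shown because the receptors were higher together in the immunized mice, and sequence is a property that the choice of genes did not use. RefSeq promoter windows on build GRCm38.p6, from 250 bases before to 50 bases after an annotated start, were matched by symbol for 5 of the 7 genes (not Trem3 or Tyrobp), with 2 overlapping windows for Fcgr3, of which 1 is printed. Of these, 4 (Clec5a, Clec12a, Igsf6 and Fcgr3) held GAGGAA on either strand, the core to which PU.1 and related Ets factors can bind, and 28.3% of all 32851 windows of this length held it. The motif TTGCNNAA, of the C/EBP type, was found for Clec12a and Fcgr3, against 10.8% of all windows. The windows of Clec5a, Igsf6 and Fcgr3, receptor genes with the motif that were called higher in EAE mice, follow with that of Fcer1g. Fcer1g held neither motif and was also called higher. Clec12a, which held both motifs and was not called in EAE mice, is not printed. The windows were picked with these calls known. Capitals mark GAGGAA or its reverse complement TTCCTC and, in Fcgr3, TTAAGCAA, a match to TTGCNNAA read on the opposite strand.
Clec5a: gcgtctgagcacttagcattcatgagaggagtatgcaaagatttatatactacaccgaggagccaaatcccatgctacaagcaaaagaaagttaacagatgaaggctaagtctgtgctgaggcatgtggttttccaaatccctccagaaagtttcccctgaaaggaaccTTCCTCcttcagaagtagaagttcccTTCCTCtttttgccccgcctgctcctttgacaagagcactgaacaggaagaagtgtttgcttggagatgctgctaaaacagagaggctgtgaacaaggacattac
Igsf6: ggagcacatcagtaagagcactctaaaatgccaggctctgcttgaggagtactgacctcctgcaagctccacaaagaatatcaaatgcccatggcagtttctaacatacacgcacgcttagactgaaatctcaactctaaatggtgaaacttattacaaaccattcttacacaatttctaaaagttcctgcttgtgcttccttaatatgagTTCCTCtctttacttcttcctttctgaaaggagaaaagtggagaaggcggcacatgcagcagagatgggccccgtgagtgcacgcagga
Fcgr3: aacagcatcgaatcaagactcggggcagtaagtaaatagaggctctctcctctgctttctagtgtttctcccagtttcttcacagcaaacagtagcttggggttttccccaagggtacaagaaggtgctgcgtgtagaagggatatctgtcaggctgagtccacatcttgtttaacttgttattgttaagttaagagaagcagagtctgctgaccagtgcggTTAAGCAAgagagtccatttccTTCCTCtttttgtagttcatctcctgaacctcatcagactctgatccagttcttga
Fcer1g: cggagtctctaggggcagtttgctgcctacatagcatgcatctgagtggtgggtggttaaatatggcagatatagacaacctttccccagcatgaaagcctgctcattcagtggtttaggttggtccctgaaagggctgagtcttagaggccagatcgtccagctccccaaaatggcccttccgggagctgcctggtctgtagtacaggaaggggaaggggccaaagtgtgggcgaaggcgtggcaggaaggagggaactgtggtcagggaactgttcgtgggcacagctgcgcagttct
All 4 are on the minus strand and are printed 5′ to 3′ in the direction of the gene: Clec5a at chr6:40585756-40586055, Igsf6 at chr7:121074481-121074780, Fcgr3 at chr1:171059354-171059653 and Fcer1g at chr1:171234300-171234599. The matches to TTCCTC began at positions -81 and -55 in Clec5a, -39 in Igsf6 and -6 in Fcgr3, counted from the start. In the same search TGTGGT (Runx type) was found for Clec5a, Clec12a and Fcer1g and in 16.8% of all windows, TGANTCA (AP-1 type) for Clec12a and in 7.81%, and the NF-kB type motif (GGG and TTTCC with any 2 bases between) for Fcgr3 and in 1.63%. The IRF type motif (GAAA, any 2 bases, GAAA) was in 0 of the 6 windows of these genes and in 3.44% of all windows. These are matches of letters, and binding was not measured.

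The table does not hold raw counts, and since the depth behind a value is unknown, no interval for counting error is given. The deposited values summed to between 8641735 and 10387955 per library, and 13018 genes were tested. Values below are scaled values, the deposited values divided by a factor per library, and log2 differences are on the scale log2(scaled value + 1). Directions within the groups are missing from the values, so the spread between mice may be understated. Olfactory and other chemosensory receptor genes, which have no known role in blood progenitors, held 0.146% to 0.175% of the values in naive, 0.103% to 0.117% in EAE and 0.0774% to 0.0960% in treated libraries. The 3 ranges were separate, and their part in the results was not tested.

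In the immunized mice Clec5a, Igsf6 and Trem3 stood about 10-fold or more above the naive mice, Fcgr3 more than 3-fold above them, and the adaptor genes and Clec12a less than 2-fold. The contrast of EAE and naive mice was in view when the genes were chosen, so its values are a description without a test of its own. By the fit across all genes, 6 of the 7 passed as higher and none as lower, where 9.13% of all tested genes were called higher. Clec5a, counted among them, entered the tests only through the immunized groups, so its call and its lack of overlap are no support. All but Clec12a had EAE libraries above every naive library, which held in this direction for 21.0% of all tested genes.

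Clec5a, the lectin that signals through Tyrobp, had scaled values of 5.07, 4.74 and 8.45 in naive replicates 1, 2 and 3, of 166, 152 and 205 in EAE replicates and of 115, 108 and 139 in the treated replicates. The naive libraries were all under 10, so this gene entered the tests only through the immunized groups, which were far above and did not overlap with them. Its log2 difference was 4.68 ± 0.25 (SE) for EAE against naive mice and 4.14 ± 0.24 for treated against naive mice, the 5th highest of the 13018 tested genes in both. Its calls and rank are no support, since the filter passed it through the immunized groups alone.

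Igsf6 stood at 26.4, 14.2 and 33.8 in naive, 308, 468 and 451 in EAE and 323, 282 and 448 in treated libraries. EAE replicate 1 and treated replicates 1 and 2 lay together at the lower end of the immunized libraries, and all 6 were well above the naive ones. The log2 difference from naive mice was 4.07 ± 0.28 in EAE and 3.84 ± 0.28 in treated mice. Igsf6 overlaps another gene, Mettl9, in RefSeq. Mettl9 itself was not called, at 2397 ± 111 in naive and 2656 ± 268 in EAE mice (SD, n = 3 each), and no stretch of 50 bases of an Igsf6 transcript occurs in a Mettl9 transcript of GENCODE M21 on either strand.

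Trem3, a receptor of the Trem family that uses Tyrobp, was 17.2, 10.4 and 25.4 in naive, 200, 249 and 225 in EAE and 141, 158 and 238 in treated libraries. The treated libraries spread the most, with replicate 3 inside the range of the EAE libraries and the other 2 below it. The log2 difference from naive mice was 3.69 ± 0.29 in EAE and 3.32 ± 0.29 in treated mice. Its neighbour Trem1, also coupled to Tyrobp, rose in EAE mice by 2.16 ± 0.49 (limma-trend, Benjamini-Hochberg adjusted p = 0.0132), from 98.3, 241 and 49.8 to 256, 699 and 589. The rise of Trem1 was lost without EAE replicate 2 (adjusted p = 0.0590), with 0.00391 to 0.0590 over its alternatives. Treml4, the neighbour on the other side, was at or below 10.3 in every library and was not tested.

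**Figure D1:**
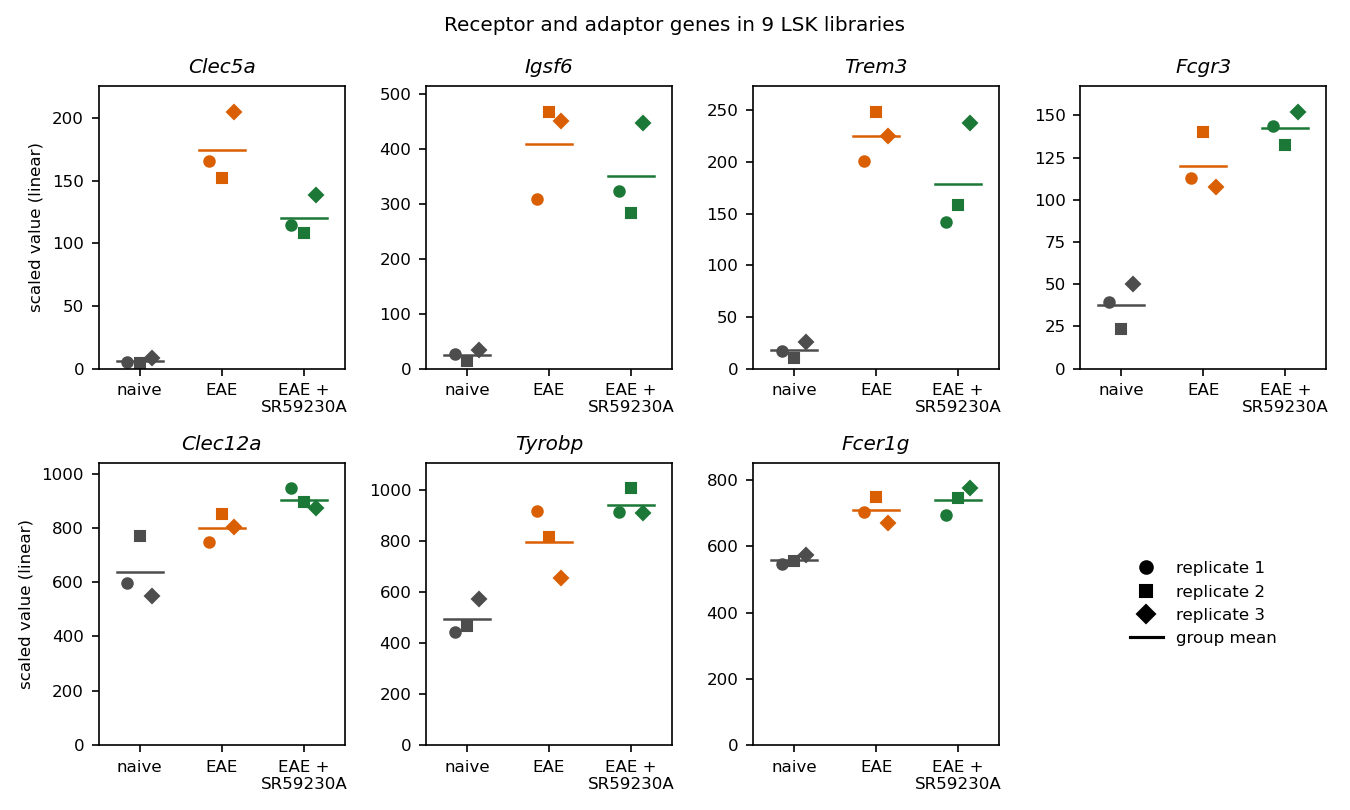
Scaled values (linear axis from 0) of the 7 genes in each library, by group, with circles, squares and diamonds for replicates 1, 2 and 3 and a line at the group mean. The naive libraries lie far below the other 6 for Clec5a, Igsf6 and Trem3, while for Clec12a naive replicate 2 (769) lies within the range of the EAE libraries.

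Fcgr3, the IgG receptor chain, was 39.5, 23.7 and 49.8 in naive, 113, 140 and 107 in EAE and 143, 132 and 152 in treated libraries. Naive and immunized libraries did not overlap, while EAE replicate 2 lay within the treated range. The log2 difference from naive mice was 1.71 ± 0.26 in EAE and 1.96 ± 0.26 in treated mice. Of the 50-base stretches of Fcgr3 transcripts in GENCODE M21, 9.58% also occur in transcripts of Fcgr2b, the inhibitory IgG receptor. The sources used here do not say how reads from such shared sequence were assigned, and the split between the pair of genes is uncertain.

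Fcgr2b rose as well, from 97.3, 120 and 93.9 in naive to 307, 407 and 371 in EAE mice (log2 difference 1.80 ± 0.15, Benjamini-Hochberg adjusted p = 2.41e-05, limma-trend). Fcgr3, an activating IgG receptor gene, and the inhibitory Fcgr2b were thus both called higher, with EAE libraries above every naive library for each. The split of shared sequence between them stays uncertain. The high-affinity IgG receptor gene Fcgr1 was near the lower limit, at 3.04, 0.948 and 9.39 in naive and 17.2, 3.07 and 10.4 in EAE libraries, and was not called (log2 difference 1.13 ± 0.73). Fcgr4, the gene beside Fcgr3, was at or below 12.5 in every library and was not tested.

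Clec12a, the lectin with an inhibitory tail, was 596, 769 and 548 in naive, 749, 850 and 804 in EAE and 946, 894 and 873 in treated libraries. Naive replicate 2 was above EAE replicate 1, so naive and EAE mice overlapped, and the treated libraries were above all others. The log2 difference from naive mice was 0.34 ± 0.13 in EAE, the one of the 7 that was not called, and 0.52 ± 0.13 in treated mice.

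The adaptor genes differed less between the groups than the receptor genes Clec5a, Igsf6, Trem3 and Fcgr3. Tyrobp was 443, 469 and 574 in naive, 917, 819 and 658 in EAE and 913, 1009 and 910 in treated libraries. EAE replicate 3 was the lowest of the immunized libraries and lay closest to the naive ones without overlapping them. The log2 difference from naive mice was 0.69 ± 0.14 in EAE and 0.94 ± 0.14 in treated mice. Fcer1g was 547, 555 and 574 in naive, 703, 751 and 672 in EAE and 696, 746 and 776 in treated libraries. The naive values were close together and below all others, and the log2 difference was 0.34 ± 0.10 in EAE and 0.40 ± 0.10 in treated mice. In EAE against naive mice the call of Fcer1g was lost without scaling (limma-trend, Benjamini-Hochberg adjusted p = 0.164), with upper-quartile scaling (adjusted p = 0.0887) and without naive replicate 1 (adjusted p = 0.0689), with 0.00445 to 0.164 over its alternatives.

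Hcst, which encodes DAP10, an adaptor with a phosphatidylinositol 3-kinase motif in place of an ITAM, lies next to Tyrobp and was not called. It stood at 198, 212 and 221 in naive, 248, 292 and 181 in EAE and 240, 284 and 283 in treated libraries. The EAE libraries lay on both sides of the naive ones.

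Against naive mice the treated mice shared the same controls as the EAE mice, so their differences are no independent support. In that comparison all 7 genes passed as higher, where 10.2% of all tested genes were called higher, and in all 7 the treated libraries were above every naive library, as were those of 26.4% of all tested genes. These counts include Clec5a, which entered the tests only through the immunized groups. The call of Clec12a was lost without scaling (limma-trend, Benjamini-Hochberg adjusted p = 0.105) and without naive replicate 1 (adjusted p = 0.0520), and that of Fcer1g without scaling (adjusted p = 0.180) and with upper-quartile scaling (adjusted p = 0.0524). Over their alternatives the range was 0.00248 to 0.105 for Clec12a and 0.00193 to 0.180 for Fcer1g.

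**Figure D2:**
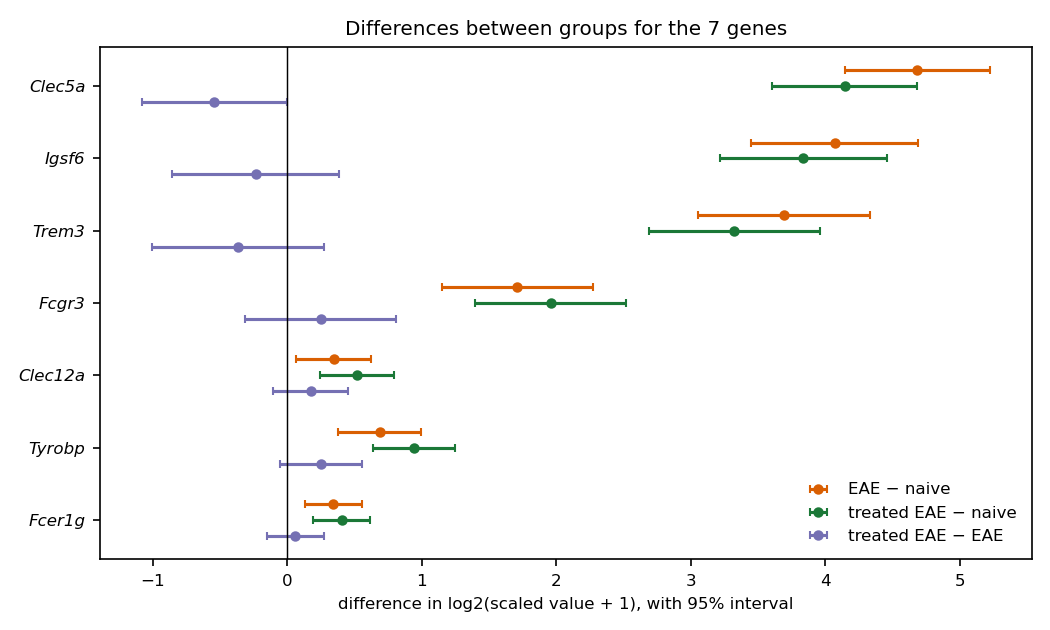
Differences between groups in log2(scaled value + 1) for each of the 7 genes, with 95% intervals, for EAE minus naive, treated EAE minus naive and treated EAE minus EAE. The intervals against naive mice lie above 0 for all 7, from 0.34 ± 0.10 (SE) for Fcer1g to 4.68 ± 0.25 for Clec5a in EAE mice, and those of treated against EAE mice lie close to or across 0.

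The comparison of treated with untreated EAE mice asks what the antagonist changed in immunized mice. Its EAE libraries are also those of the contrast in which the genes had been noticed. For genes noticed by high EAE values, such as Clec5a, that choice favours values below 0 here. None of the 7 genes passed (limma-trend, Benjamini-Hochberg adjusted p = 0.998 for each), where 0.00768% of all tested genes were called, and 1 of the 7, Clec5a, had an unadjusted p under 0.05, as did 3.87% of all tested genes. Clec5a was lower in all 3 treated libraries (108 to 139) than in every EAE library (152 to 205), with a log2 difference of -0.54 ± 0.25 and a 95% interval from -1.08 to -0.0050 (unadjusted p = 0.0482). Clec12a was the other gene without overlap, higher in all 3 treated libraries, with a log2 difference of 0.18 ± 0.13 and an interval from -0.10 to 0.45. Such separation of these groups, in either direction, was found for 16.2% of all tested genes.

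The other 5 genes overlapped between EAE and treated mice. Igsf6 and Trem3 had log2 differences of -0.23 ± 0.28 (interval -0.85 to 0.39) and -0.37 ± 0.29 (-1.01 to 0.27). Fcgr3 had 0.25 ± 0.26 (-0.31 to 0.81), Tyrobp 0.25 ± 0.14 (-0.05 to 0.56) and Fcer1g 0.06 ± 0.10 (-0.15 to 0.27). The sign of the Fcer1g value turned without scaling, to -0.03. Clec5a, Igsf6 and Trem3, the genes noticed in EAE against naive mice, had values below 0 and the other 4 genes above 0. These signs are a description, since that choice favours values below 0 for the genes noticed. The intervals differed in width and were narrowest for Fcer1g, where values beyond -0.15 to 0.27 lay outside. Neither a change nor the lack of one is shown for any of these genes.

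Other receptors that signal through Tyrobp or Fcer1g were mostly near or below the limit for testing. Of 33 listed genes, 18 were in the table and 9 were tested, of which 3 rose in EAE against naive mice and none fell, where 9.13% of all tested genes were called higher and 5.10% lower. Their median log2 difference was 1.13, against -0.0032 over all tested genes. This median is the value of Fcgr1, which was near the lower limit and not called, and Ncr1, also low, is among the 9. Beside Trem1, the lectin gene Clec4d rose by 1.62 ± 0.24 (adjusted p = 0.00161), from 21.3, 19.9 and 21.6 to 56.9, 83.9 and 60.5, and Clec4e, which encodes the mycobacterial glycolipid receptor Mincle, by 0.79 ± 0.14 (adjusted p = 0.00430), from 106, 97.6 and 115 to 182, 180 and 189. All adjusted p here and in the lists that follow are Benjamini-Hochberg values of limma-trend over all tested genes. In treated against naive mice 5 of the 9 rose, where 10.2% of all genes were called higher. Siglech, a receptor of plasmacytoid dendritic cells, and Ncr1, a natural killer cell receptor, were the added ones, with log2 differences of 2.92 ± 0.59 and 3.16 ± 0.67. Without treated replicate 1 or without treated replicate 3, 3 of them passed. Ncr1 reached 10 only in the treated libraries (14.4 to 15.3) and entered the tests through them alone, so its call is no support.

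Among other ITAM-type chains, 6 of 11 listed genes were tested, and 2 rose and 1 fell in EAE mice, where 9.13% of all tested genes were called higher and 5.10% lower. Clec7a, which encodes Dectin-1, a receptor for beta-glucan with a motif of its own, rose by 1.98 ± 0.30 (adjusted p = 0.00173), from 33.5, 23.7 and 26.3 to 71.3, 149 and 127. Ms4a2, the beta chain of the IgE receptor, was the other called higher, at 6.08, 7.58 and 8.45 in naive and 24.4, 17.4 and 22.9 in EAE libraries. It entered the tests only through the immunized groups, so its call is no support. Cd247, the T cell receptor zeta chain, fell by 1.12 on the log2 scale (SE 0.24, adjusted p = 0.00961), from 94.3, 74.9 and 93.9 to 43.3, 33.8 and 42.7.

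Downstream of the motif, Card9 was the gene with the largest difference. It stood at 465, 417 and 539 in naive, 2123, 2823 and 2339 in EAE and 1994, 2078 and 2677 in treated libraries. All 6 immunized libraries were far above the naive ones, with a log2 difference of 2.37 ± 0.14 in EAE mice (adjusted p = 1.55e-06). Syk, the kinase that docks on the ITAM, was not called, at 1892, 1723 and 1806 in naive and 1543, 1593 and 1722 in EAE libraries (log2 difference -0.16 ± 0.09).

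Of the 33 kinases and scaffolds, all of them tested, 3 rose, 5 fell and 25 did not pass in EAE mice, with a median log2 difference of 0.11. Of all tested genes 9.13% were called higher and 5.10% lower, so the number of rises was near its share and that of falls above its own. The number called was 6 to 12 over the alternatives. Beside Card9, Pik3r5, a regulatory subunit of phosphatidylinositol 3-kinase gamma, rose by 0.90 ± 0.15 (adjusted p = 0.00284) and the docking protein gene Gab2 by 0.55 ± 0.11 (adjusted p = 0.00700). The Src-family kinase gene Lck, best known from T cells, fell by 0.55 on the log2 scale (SE 0.11, adjusted p = 0.00662). Lat, Plcg1, Src and Pik3cg were the others that fell. Src and Pik3cg were nearest the threshold (adjusted p = 0.0351 and 0.0352), and these genes were not rerun singly over the alternatives. The myeloid Src-family kinase gene Fgr, named here after its values were seen, passed in treated against naive mice (log2 difference 1.89 ± 0.40) but not in EAE against naive mice (1.17 ± 0.40). It did not pass in treated against EAE mice, with a log2 difference of 0.72 ± 0.40.

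**Figure D3:**
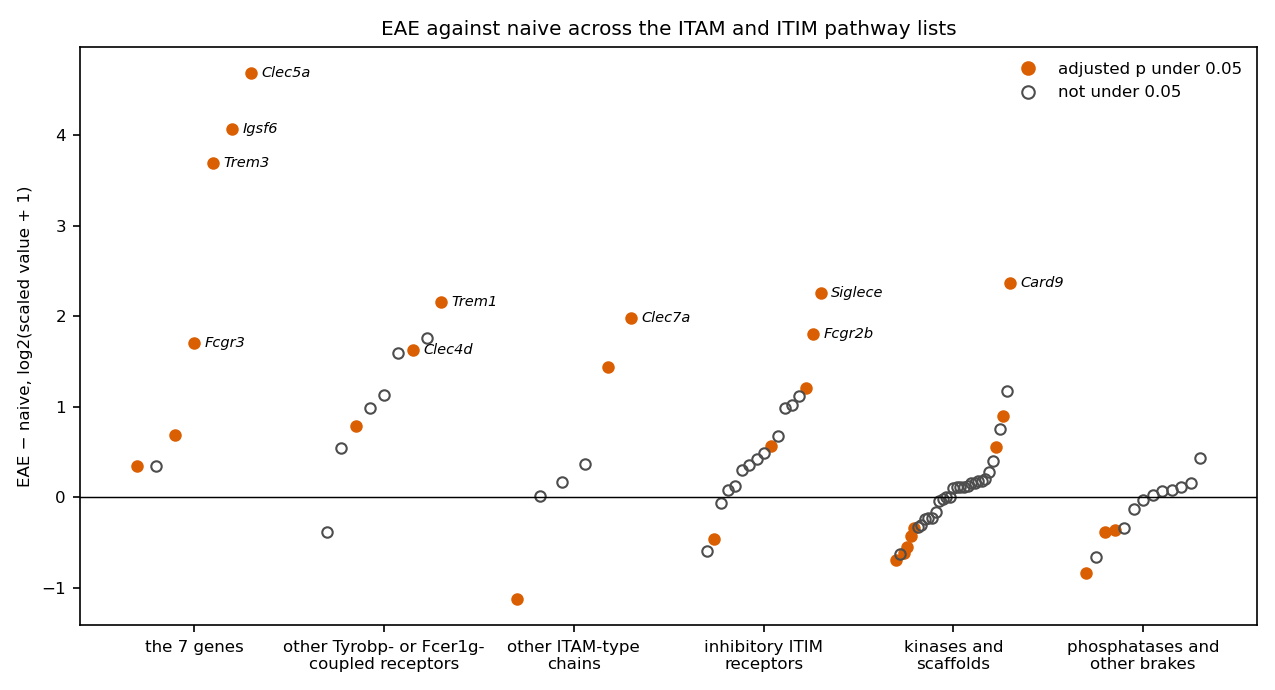
Log2 differences of EAE minus naive mice for every tested gene of the 7 and of the 5 pathway lists, sorted within each list, filled where adjusted p was under 0.05. Card9 stands apart from the other kinases and scaffolds at 2.37, and Syk lies at -0.16.

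Fcgr2b, described above, belongs to the inhibitory receptors with an ITIM. Of 24 listed genes 17 were tested, of which 4 rose and 1 fell in EAE mice, where 9.13% of all tested genes were called higher and 5.10% lower. Their median log2 difference was 0.49. Beside Fcgr2b, Milr1, the mast cell and myeloid receptor Allergin-1, rose by 1.21 ± 0.11 (adjusted p = 7.73e-05), from 562, 602 and 701 to 1532, 1280 and 1476. Siglece, a sialic acid-binding receptor of neutrophils and monocytes, rose by 2.25 ± 0.37 (adjusted p = 0.00282), from 12.2, 8.53 and 23.5 to 84.9, 67.5 and 54.2, and the collagen receptor gene Lair1 by 0.56 ± 0.11 (adjusted p = 0.00546). Cd72, a B cell receptor with an ITIM, was the one that fell.

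Of 13 phosphatases and other negative regulators, none rose and 3 fell in EAE mice, where 9.13% of all tested genes were called higher and 5.10% lower. The number called was 1 to 6 over the alternatives (1 without scaling and without naive replicate 1). The adaptor gene Dok2 fell by 0.83 on the log2 scale (SE 0.11, adjusted p = 0.000560), from 608, 615 and 621 to 370, 331 and 338. The phosphatase genes Ptprj and Inpp5d, the latter encoding SHIP-1, fell by 0.36 (SE 0.10) and 0.38 (SE 0.11), with adjusted p = 0.0301 and 0.0339. Both calls were lost without scaling (adjusted p = 0.106 and 0.0902) and without naive replicate 1 (adjusted p = 0.0512 and 0.0568), with 0.00246 to 0.106 for Ptprj and 0.00901 to 0.0902 for Inpp5d over their alternatives. Ptpn6, which encodes SHP-1, was not called, at 2358, 2080 and 2428 in naive and 2463, 2761 and 2436 in EAE libraries.

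In treated against EAE mice limma-trend called none of these 5 lists' genes. At an unadjusted p under 0.05 there were 1 of the 9 other receptors, 1 of the 6 chains, 4 of the 33 kinases and scaffolds, none of the 17 inhibitory receptors and 1 of the 13 negative regulators, where 3.87% of all tested genes were below it.

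The 7 genes are known from several cell types that the gate should leave out, and markers of those types were measured beside them. In bulk libraries, more cells of a type and more RNA per cell cannot be told apart. The counts of called markers that follow stand against 9.13% of all tested genes called higher and 5.10% called lower in EAE mice. Cebpe, Cxcr2 and Ms4a2, each counted as risen in its list, were under 10 in every naive library and entered the tests only through the immunized groups. Of 10 tested markers of granulocyte-monocyte progenitors 9 rose in EAE mice, and their summed scaled values were 4028 to 4821 in naive, 18823 to 24491 in EAE and 19268 to 20852 in treated libraries. Mpo and Elane, genes of the primary granule, stood at 171 to 245 and 30.4 to 66.3 in naive libraries and at 614 to 1179 and 985 to 1734 in EAE libraries. The part of these progenitors in the values of the 7 genes was not tested.

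Of 14 tested markers of mature neutrophils 3 rose and 1 fell in EAE mice. Their sum was 5043, 3784 and 8218 in naive, 13805, 5338 and 18881 in EAE and 9343, 16549 and 19317 in treated libraries. EAE replicate 2 had the lowest neutrophil sum of the immunized libraries, inside the naive range, and S100a8 and S100a9 were at 729 and 998 there against 2759 and 3578 or more in the other EAE libraries. In that same library Igsf6 (468), Trem3 (249), Fcgr3 (140), Clec12a (850) and Fcer1g (751) had their highest values among the EAE libraries. Clec5a (152) had its lowest value there, and Tyrobp (819) lay between the other EAE libraries. EAE replicate 2 also had the highest sums of granulocyte-monocyte progenitor (24491) and mast cell and basophil (710) markers. In naive mice replicate 3 had the highest and replicate 2 the lowest neutrophil sum. Igsf6, Trem3 and Fcgr3 had the same order, and Clec12a the opposite one. Fcer1g and Tyrobp were lowest in replicate 1. Treated replicate 3 had the highest neutrophil sum of its group and the highest Clec5a, Igsf6, Trem3, Fcgr3 and Fcer1g, with Clec12a and Tyrobp lowest. The part of mature neutrophils in the values of these genes was not tested.

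Markers of monocytes and macrophages summed to 3019 to 4583 in naive, 5980 to 6721 in EAE and 6117 to 7418 in treated libraries, and 3 of 10 rose in EAE mice. The monocyte receptor gene Ccr2 stood at 56.9 to 89.2 in naive and 1088 to 1283 in EAE libraries, while Cx3cr1 was at 10.3 to 18.0 and 21.5 to 31.3 and the macrophage gene C1qb was at or below 12.2 in every library. Natural killer cell markers summed to 606 to 751 in naive, 906 to 1109 in EAE and 974 to 1066 in treated libraries, with 2 of 5 higher in EAE mice. Their first listed genes, Klrb1c and Ncr1, stood at 29.4 to 38.5 and 0 to 1.88 in naive libraries and at 78.2 to 97.2 and 2.05 to 8.34 in EAE libraries. Mast cell and basophil markers summed to 224 to 314, 460 to 710 and 541 to 612, and 3 of 6 rose in EAE mice, including Ms4a2. Fcer1a, the ligand-binding chain that uses Fcer1g in those cells, was too low to be tested, at 0, 0.948 and 0.939 in naive, 3.61, 6.14 and 1.04 in EAE and 7.12, 5.10 and 3.33 in treated libraries. EAE replicate 3 lay next to naive replicates 2 and 3, and at values this low no separation of the groups is read from Fcer1a. The part of these cell types was not tested.

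Dendritic cell markers summed to 368 to 401 in naive, 248 to 616 in EAE and 496 to 807 in treated libraries, and of 5 tested none rose and 1 fell in EAE mice. The one that fell was the chemokine receptor gene Ccr9, at 149, 120 and 190 in naive and 75.8, 24.6 and 92.8 in EAE libraries. Siglech went the other way without being called, at 12.2, 20.8 and 7.51 in naive and 30.7, 28.7 and 98.0 in EAE libraries. Of the 5 tested, 3 had log2 differences above 0. The genes of the sort gate were high throughout, with Kit at 6547 to 7235 in naive and 4846 to 5286 in EAE libraries and Ly6a, which encodes Sca-1, at 1412 to 1741 and 1881 to 2379. Of 11 genes typical of the gated cells 1 rose and 7 fell in EAE mice. Of 4 tested B cell markers none rose and 1 fell in EAE mice. In the T cell list, 3 of the 8 genes were not in the table used here, and of 3 tested none rose and 1, Lck, fell in EAE mice. Cd3g was at or below 6.10 in every library, while Cd4 was at 133 to 211 and Lck at 315 to 513 over all libraries.

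**Figure D4:**
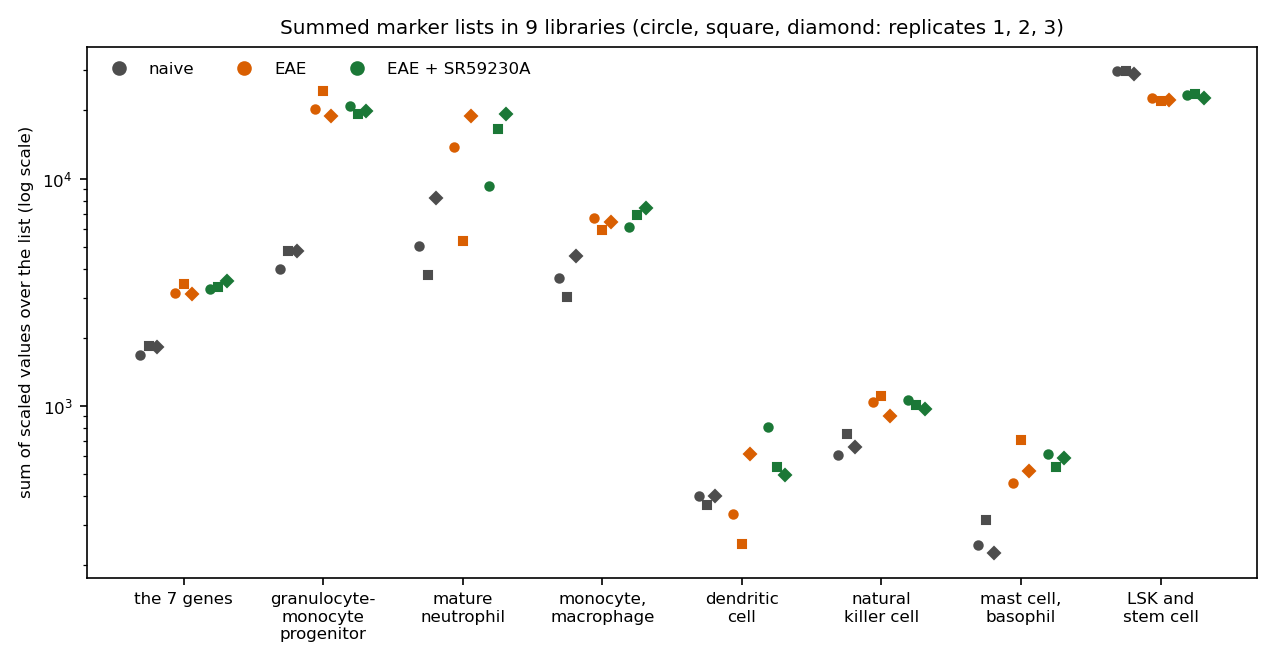
Sums of scaled values (log axis) over the 7 genes and over 7 marker lists in each library, coloured by group, with circles, squares and diamonds for replicates 1, 2 and 3. The sum of the 7 genes lies between 1675 and 1846 in naive and between 3123 and 3535 in the other libraries. The neutrophil sum of EAE replicate 2 (5338) lies among the naive libraries, and the part of neutrophils in the 7 genes was not tested.

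Across the 9 libraries, the 10 genes whose log2 values were most like the mean of the 7 (each centred on its own mean) included Rrm2, Card9, Utp15, Nmt1, Thyn1, Gsr, Ccr2, Cep55 and Slc22a4, with Pearson's r from 0.994 to 0.998. Those named were higher in every immunized than in every naive library. By single gene the most alike was Ccr2 for Clec5a (r = 0.999), Utp15 for Igsf6 (r = 0.999), Gsr for Trem3, Rilpl2 for Clec12a, Abcb10 for Fcgr3, Htra2 for Fcer1g and Tspan31 for Tyrobp (r from 0.995 to 0.997 for these 5). The best of 13018 genes over 9 points is high by choice, the libraries share the split between naive and immunized mice and lack directions within the groups, so these values are descriptions.

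Among the 7 themselves, r over the 9 libraries was highest for Igsf6 with Trem3 (0.996) and for Clec5a with Trem3 and with Igsf6 (0.989 each). Tyrobp and Fcer1g, the adaptors, had r = 0.935 with each other. Clec12a was the least alike, with r from 0.678 to 0.777 with the other 6. In naive mice, replicate 2 had the lowest value of Igsf6, Trem3 and Fcgr3 and the highest of Clec12a. Replicate 3 had the highest value of Igsf6, Trem3, Fcgr3 and Clec5a and the lowest of Clec12a. Clec5a was near the floor in naive mice, and replicates 1 and 2 (5.07 and 4.74) are not ranked for it.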

How the data were processed

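One table was used, with whole numbers for 14940 gene symbols, whose 9 columns were matched to the samples by the names in their labels. The unit of the deposited values is treated as a score, since the authors' adjustment is unknown: in ln(value + 1) of the 4577 genes averaging 500 or more, components 7 and 8 carried 6.7e-05% and 5.94e-05% of the variance, which independent libraries do not give. Aligner, counting tool, genome build and annotation: not given in the sources used here. DESeq2 is named as the authors' tool, with no version or role, per the submitters' processing notes. RNA was prepared with an RNeasy micro kit, per the labels' protocols.

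Median-of-ratios factors (0.900 to 1.11) scaled the libraries. A gene was tested if 3 or more libraries had a deposited value of 10 or higher, which left 13018. The fit was limma-trend (limma 3.58.1, R 4.3.3) on log2(scaled value + 1), 2-sided, with p adjusted by Benjamini-Hochberg and called under 0.05. It had 1 coefficient for each group plus covariates for the 2 missing directions, which left 4 residual degrees of freedom, and was tested on simulated data. A log2 difference understates the change of low genes. Genes were chosen, and lists written, with earlier results of these data known. Named from each pathway list were up to 4 called genes with the smallest p in EAE against naive mice, and Hcst, Syk, Fcgr2b, Fcgr1, Fcgr4 and Ptpn6 whatever their values, and from marker lists the first 2 genes. Genes named beyond that rule (Fgr, Siglech, Ncr1, C1qb, Cd3g, Cd4, Ccr9, Cebpe, Cxcr2, the other called kinases and Cd72, and genomic neighbours) were chosen after their values were seen. A few genes that the rule names are not reported here.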

Additional observations from a re-analysis of the deposited data

How the results depend on the processing

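Alternatives were run for scaling, pseudocount, the filter on low values, the missing directions, the libraries in the fit and each library left out. Of 336 values of the 7 genes over these alternatives, 326 kept their direction and their side of the threshold. The exceptions are the calls of Fcer1g and Clec12a against naive mice lost as given above, Clec12a in EAE against naive mice, which passed with group terms alone (limma-trend, Benjamini-Hochberg adjusted p = 0.0424) and without naive replicate 2 (adjusted p = 0.00820), with 0.00820 to 0.225 over its alternatives, and Fcer1g in treated against EAE mice, which turned to -0.0261 without scaling. Of the other named genes, 29 pairs of gene and comparison were rerun, and 456 of 461 values kept their direction and side of the threshold. Lat, Plcg1, Src, Pik3cg, Cd72, Mettl9 and the genes named from marker lists alone were not rerun by gene.

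Over all genes, 1853 were called in EAE against naive mice, 1059 without scaling, 3485 with group terms alone and 1239 to 2624 with 1 library left out. In treated against naive mice 1932 were called, 1073 without scaling, 3920 with group terms alone, 4442 with only the 6 libraries compared and 1234 to 3327 with 1 library left out (1234 without naive replicate 1, 2967 without EAE replicate 2 and 3327 without EAE replicate 3). Calls were higher in 64.2% for EAE against naive mice (47.0% with upper-quartile scaling) and in 68.9% for treated against naive mice (46.7% with upper-quartile scaling and 45.6% without scaling, which moved the median of all genes there to -0.11). The cause of these shifts was not tested. In treated against EAE mice 1 gene was called in every fit. No paired analysis was possible because the replicates were numbered in the order of deposition and the labels share fewer than 2 numbers between groups.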
